A study of Mus musculus with 4 samples.

Results

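The replication-dependent histone genes are the clustered genes that supply the bulk of the H1, H2A, H2B, H3 and H4 proteins. They were taken from the RNA-seq count table of mouse embryonic stem cells (mESCs) as every gene whose symbol begins with Hist1h, Hist2h, Hist3h or Hist4h. The rule found 70 of 37620 genes. Of these, 56 belong to the Hist1 cluster on chromosome 13 of mm9, 10 to Hist2 on chromosome 3, 3 to Hist3 on chromosome 11 and 1 to Hist4 on chromosome 6. By family there were 6 H1, 20 H2a, 19 H2b, 12 H3 and 13 H4 genes. The annotation calls 67 of them protein coding and 3 pseudogenes.

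The question was how transcript levels differ when CTCF lacks O-GlcNAc at 1 site, and it was put to 2 libraries each of WT_CTCF and MUT_CTCF mESCs. Cells with tagged endogenous CTCF were given a vector with wild-type CTCF (WT_CTCF) or with CTCF mutated at T668, which cannot carry O-GlcNAc there (MUT_CTCF). The tagged endogenous protein was removed from both lines with auxin. Both lines thus carry the degron and the vector, and each was picked as a clone whose exogenous CTCF was close to the endogenous level. Only these 2 lines were compared, so the mutation and other differences between the lines cannot be told apart.

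In a dividing cell, DNA replication has to be matched by new histones, and the clustered genes are switched on as S phase begins by NPAT and its partners at a nuclear body that forms on the clusters. Their transcripts mostly have no introns and, unlike other mRNAs, end in a conserved stem-loop instead of a poly(A) tail. The stem-loop binding protein SLBP and the U7 snRNP direct the cut just after the stem-loop, and the mRNA is degraded quickly when replication stops. Mouse embryonic stem cells divide fast and spend much of their cycle in S phase. The study's methods say that mRNA was sequenced and the labels that total RNA was extracted. Whether poly(A) RNA was selected or ribosomal RNA removed is not given in the sources used here, and neither is the strand used in counting.

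The 3′ stem-loop is the feature that defines this class of mRNA, so the members were searched for it in mm9. It was found in 63 of the 70 genes, with all 6 stem positions paired in each, and it began 22 to 59 bases after the stop codon in the 61 of them with an annotated stop codon. One example of each of the 6 forms is given with 5 flanking bases on each side, together with the 3 other most abundant members. Sequences are shown as RNA sense in DNA letters, 5′ to 3′. Capitals mark the stem, and the 4 lower-case bases between its arms are the loop.

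Hist1h1c (chr13:23831376-23831401, + strand): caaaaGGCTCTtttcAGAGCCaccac
Hist1h2bc (chr13:23776511-23776536, + strand): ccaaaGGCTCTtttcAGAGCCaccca
Hist1h2ae (chr13:23662532-23662557, - strand): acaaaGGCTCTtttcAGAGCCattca
Hist1h3c (chr13:23836911-23836936, - strand): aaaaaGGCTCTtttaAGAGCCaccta
Hist2h2ac (chr3:96024336-96024361, - strand): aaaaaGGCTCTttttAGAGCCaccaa
Hist1h4d (chr13:23673814-23673839, + strand): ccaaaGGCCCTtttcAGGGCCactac
Hist1h4i (chr13:22132830-22132855, - strand): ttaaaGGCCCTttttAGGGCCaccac
Hist1h4b (chr13:23849230-23849255, + strand): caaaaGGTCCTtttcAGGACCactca

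The form of Hist1h1c was the commonest and was shared by 5 H1, 15 H2a, 13 H2b and 8 H3 genes. The form of Hist1h3c was found in 1 H1, 1 H2a, 4 H2b and 3 H3 genes. Hist2h2ac had a form of its own. The stem of every H4 gene with a stem-loop differed from these: 8 had the form of Hist1h4d, 2 that of Hist1h4i and 2 that of Hist1h4b. The stem letters therefore separated H4 from the other 4 families. No stem-loop of this pattern was found in 7 genes, which were Hist1h2al, Hist1h2an, Hist1h2aj, Hist1h3g, Hist1h4a, Hist2h2bb and Hist2h2be.

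These genes gave few reads. The libraries held 40524694 to 40977464 counts, and the 70 genes together gave 4983 and 5059 counts in WT_CTCF and 4877 and 5069 in MUT_CTCF. That was 0.0119% to 0.0125% of a library. Counts were normalized by edgeR's TMM method to a library of mean size. Summed over the 70 genes they were 5031 ± 56.5 in WT_CTCF mESCs and 4964 ± 183 in MUT_CTCF mESCs (SD, n = 2 each), a ratio of 0.987 with overlapping libraries. These levels were low beside those of other genes: the members that could be tested had a median of 28.3 normalized counts per library, against 531.7 over all tested genes.

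Most reads came from a single gene. Hist1h1c, which encodes a linker histone that binds DNA between nucleosomes, held 54.8% to 56.6% of all member counts. It had 2738 and 2864 counts in WT_CTCF and 2672 and 2800 in MUT_CTCF, with the libraries interleaved. Its log2 fold change of MUT_CTCF over WT_CTCF was -0.04 (95% interval -0.15 to 0.07; adjusted p = 0.818 by edgeR's quasi-likelihood test, Benjamini-Hochberg over 16264 genes). This was the narrowest interval of any member.

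Only 3 other genes had a mean of at least 100 normalized counts. Hist1h2bc, a core H2B gene, had 409 and 361 counts in WT_CTCF and 380 and 366 in MUT_CTCF, and its log2 fold change was -0.05 (95% interval -0.32 to 0.21). Hist1h4i had 312 and 229 against 234 and 199, where the lower WT_CTCF library fell just under the higher MUT_CTCF library, and its log2 fold change was -0.33 (95% interval -0.67 to 0.01; adjusted p = 0.352 by edgeR). Leaving out the first WT_CTCF library gave -0.09, and leaving out the other gave -0.53. Hist1h2ae, a core H2A gene, had 144 and 111 against 137 and 166 counts, again overlapping, with a log2 fold change of 0.24 (95% interval -0.20 to 0.69). Per length, the order of levels was 43.5 RPKM (counts divided by exon length and library size) for Hist1h1c, 12.6 for Hist1h2bc, 11.1 for Hist1h4i and 4.86 for Hist1h2ae, averaged over the 4 libraries. Hist1h3g, Hist1h3h and Hist1h3c followed at 3.95, 3.61 and 3.53.

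All 4 of these abundant genes had an annotated exon that ran on past the stem-loop, by 839 bases in Hist1h1c, 313 in Hist1h2bc, 150 in Hist1h4i and 151 in Hist1h2ae. Such a stretch of 100 bases or more was annotated in 21 members, a limit set after the values were seen. The 21 genes held 3871 to 4087 of the counts of each library. The 4 abundant genes among them alone held 3423 to 3603, so this sum mostly restates their levels. The 42 genes whose annotation ended fewer than 100 bases after the stem-loop held 692 to 838, and the 7 genes in which no stem-loop was found 204 to 228. In normalized counts the medians followed the sums, at 31.5 in the 21 genes and 12.8 in the 42 genes. Per length they did not, at 0.618 RPKM in the 21 genes and 0.710 in the 42 genes. RPKM divides by an exon length that includes the stretch after the stem-loop. Counts per gene do not show whether reads lay before or after the stem-loop, so longer transcripts were not measured here.

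**Figure D1:**
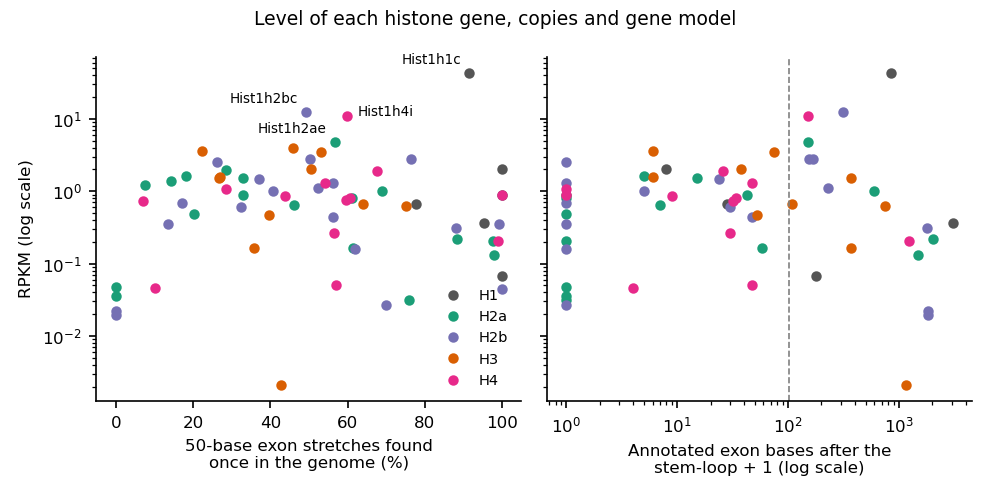
Level of each histone gene with at least 1 count (RPKM, mean of 4 libraries, log scale) against the share of its 50-base exon stretches found once in the genome (left) and the number of annotated exon bases after its stem-loop plus 1 (right, log scale, only the genes with a stem-loop; dashed line at 100 bases after the stem-loop). Points are genes, coloured by family. Hist1h1c stands highest at 43.5. Under 0.1 lie 4 genes with no unique stretch and also genes with unique stretches, such as Hist1h1t (100% unique) at 0.067.

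The clustered genes are near-copies of each other, and the deposited counts hold only reads that mapped to a single place. At 50 bases, the shortest read kept by the study's trimming, a median of 51.4% of a member's exon stretches occurred once in mm9, and 33 members had under 50%. Hist1h2ao, Hist1h2ap, Hist1h2bq, Hist1h2br, Hist2h2aa1 and Hist2h2aa2 had none, so their counts, 0 to 4 per library, cannot be read as levels. The share was 91.5% in Hist1h1c, 49.2% in Hist1h2bc, 59.8% in Hist1h4i and 56.8% in Hist1h2ae. Exon positions were shared with another gene in 9 members, of which 5 could be tested. A level compared between 2 members is therefore uncertain, while a comparison of the same member between lines carries the same loss of reads in all 4 libraries.

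Of the 70 genes, 3 had 0 counts in all libraries, which allows up to 3 counts in each, or at most 0.0739 CPM (counts scaled by library size), by counting error alone. This limit is on uniquely mapped reads and does not bound the RNA of Hist2h2aa1 and Hist2h2aa2, which have no unique stretch. A further 18 had counts, at most 21 in any library, but did not pass edgeR's filter on low counts. The remaining 49 genes were tested: 5 H1, 12 H2a, 13 H2b, 9 H3 and 10 H4. Since the filter asks for about 10 counts in any 2 libraries, it can be passed through 1 line alone. In 14 of the 49 genes at least 1 library was under 10 counts. Only the WT_CTCF libraries both reached 10 in 7 of these and only the MUT_CTCF libraries in 4, so counts of genes higher or lower are descriptions and not support for a direction.

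None of the 49 histone genes changed between the lines at an adjusted p under 0.05. In the same edgeR fit 1.56% of all 16264 tested genes were called higher and 1.61% lower in MUT_CTCF. At an unadjusted p under 0.05, 2 histone genes were higher and 1 was lower, where 7.61% of all tested genes were higher and 7.65% lower. At the study's criterion, an unadjusted p under 0.05 and a fold change above 2, there was 1 gene in each direction (Hist1h2aj higher and Hist1h2ai lower), beside 0.947% of all genes higher and 0.357% lower. DESeq2 called 0 of the 49 and gave 2 of them an unadjusted p under 0.05. It set an adjusted p for only 2 of them, since its own filter on low means left the other 47 without one.

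The 49 log2 fold changes lay on both sides of 0, with 25 higher and 24 lower. Their median was 0.07, against 0.003 over all tested genes, of which 50.8% were higher. In 7 genes the lower MUT_CTCF library exceeded the higher WT_CTCF library, which held for 22.3% of all tested genes, and in 7 genes the lines were separated the other way, which also held for 22.3%. The intervals were wide. The 95% interval reached 1.09 on the log2 scale to either side in the middle gene and from 0.11 to 1.69 over the set. Counts were also simulated from these libraries with the dispersion trend of all genes. A 2-fold change was called in 21.2% of genes with a mean of 20 to 100 normalized counts. At 100 or more it was called in 96%. For a 1.5-fold change these shares were 1% and 80%. Genes under 20 were not set to change. In the bands of 30 to 100 and above 100 normalized counts, histone genes had a higher median dispersion than other genes. Levels were not matched within these bands, but the shares may be too high for the histone genes.

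**Figure D2:**
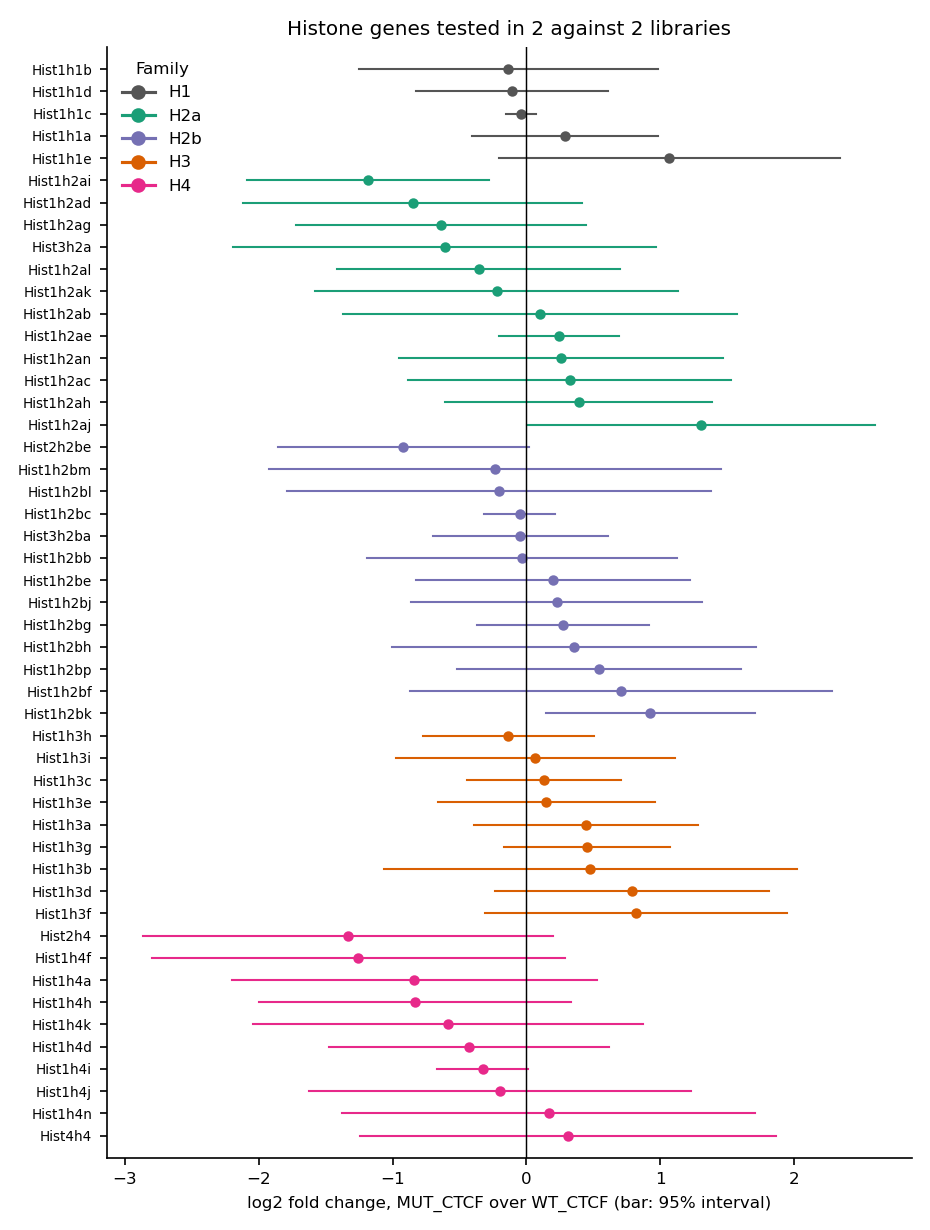
Log2 fold change of MUT_CTCF over WT_CTCF for the 49 histone genes tested, sorted by family and size. Points are edgeR estimates from 2 libraries per line and bars their 95% intervals; the interval is narrow for Hist1h1c (-0.15 to 0.07) and excludes 0 only for Hist1h2ai, Hist1h2aj and Hist1h2bk, none of which passed at an adjusted p under 0.05.

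The families were first compared by their summed normalized counts. H4, the partner of H3 in the nucleosome core, gave 503 and 411 in WT_CTCF and 352 and 337 in MUT_CTCF. Both MUT_CTCF libraries were below both WT_CTCF libraries, at a ratio of 0.754. Without Hist1h4i, which gave most of the H4 reads, the 12 others summed to 190 and 181 against 120 and 137, a ratio of 0.690.

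H3 went the other way in its mean but with overlapping libraries, 369 and 445 in WT_CTCF and 439 and 555 in MUT_CTCF, at a ratio of 1.22. For H2a the sums were 443 and 427 against 417 and 393, with both MUT_CTCF libraries lower, at a ratio of 0.932. Without Hist1h2ai this ratio became 1.01, with overlap. For H2b the sums were 784 and 752 against 777 and 839, a ratio of 1.05 with overlap. Without Hist1h2bc they were 374.6 and 389.9 against 400.5 and 471.2, a ratio of 1.14 with both MUT_CTCF libraries higher. The H1 genes without Hist1h1c gave 150 and 165 against 200 and 157, also overlapping. No p is given for these sums, since with 2 libraries in each line the smallest two-sided p that an exact permutation test allows is 0.333.

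**Figure D3:**
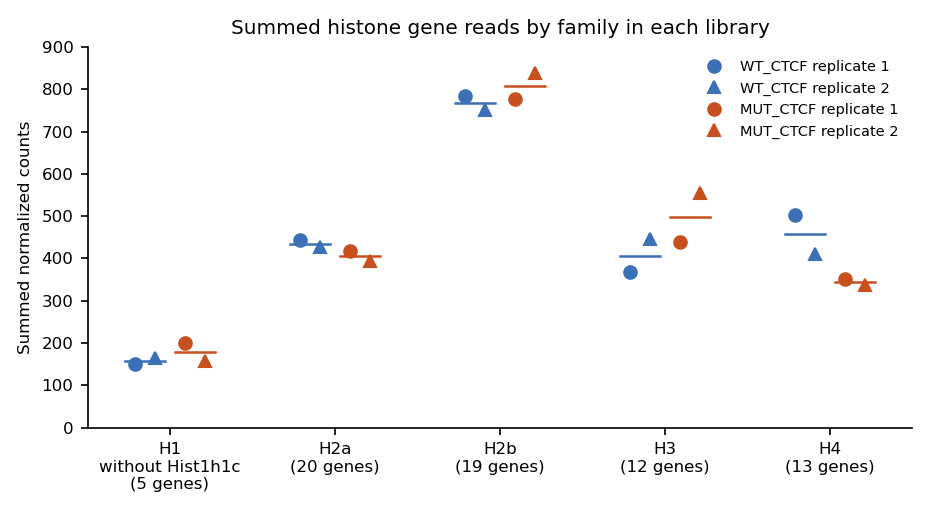
Summed normalized counts of each histone family in each library, with circles for replicate 1, triangles for replicate 2 and lines at the mean of each line. The H1 sum leaves out Hist1h1c. The H4 sums of both MUT_CTCF libraries (352 and 337) lie below both WT_CTCF sums (503 and 411). The H2a sums are separated the same way, while the H3 sums overlap.

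Gene by gene, 8 of the 10 H4 genes tested had a log2 fold change below 0, with a median of -0.51 and none called. Hist1h4d had 41 and 29 counts in WT_CTCF and 21 and 31 in MUT_CTCF, with a log2 fold change of -0.43 (95% interval -1.48 to 0.62). Hist1h4h had 42 and 22 against 23 and 13, and the groups overlapped. Hist1h4a had 25 and 18 against 8 and 16, with both MUT_CTCF libraries lower, at -0.84 (95% interval -2.20 to 0.53). These are counts at which sampling alone moves a library by a large share of its value, and 5 of the 10 H4 genes had a library under 10 counts. In 3 of these, Hist2h4, Hist1h4f and Hist1h4a, only the WT_CTCF libraries both reached 10. The median was -0.43 among H4 genes with at least 10 counts in every library, and between -0.37 and -0.68 with each library left out. Hist4h4, which stands alone on chromosome 6 and has 100% unique stretches, had 10 and 10 against 15 and 10 counts, with a log2 fold change of 0.31 (95% interval -1.24 to 1.87), which was 0.004 without MUT_CTCF replicate 1.

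Of the 9 H3 genes tested, 8 were above 0 with a median of 0.44, and none was called. Without MUT_CTCF replicate 2 this median was -0.02. Hist1h3g had 40 and 104 counts in WT_CTCF and 105 and 93 in MUT_CTCF. A single WT_CTCF library at 40 thus set its log2 fold change of 0.45 (95% interval -0.17 to 1.07), which was -0.08 without that library. Hist1h3c had 63 and 110 against 84 and 106, Hist1h3h 68 and 82 against 57 and 80, and Hist1h3e 74 and 24 against 49 and 60. In all 3 the lines overlapped, with log2 fold changes of 0.13, -0.14 and 0.15. Less abundant H3 genes, named after their values were seen, included 2 of the 9 tested whose lines did not overlap. In both, the MUT_CTCF libraries were the higher, as in 22.3% of all tested genes. Hist1h3d had 24 and 22 counts against 42 and 38, with a log2 fold change of 0.79 (95% interval -0.24 to 1.81) and the smallest adjusted p of the family, 0.502 by edgeR. Hist1h3a had 34 and 40 against 43 and 58, at 0.44 (95% interval -0.39 to 1.28). Hist1h3f had the largest H3 value, 0.82 (95% interval -0.31 to 1.95), from 22 and 17 against 22 and 47 counts, with overlap.

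Among the H2a genes, 6 were higher and 6 lower. Hist1h2ai (chromosome 13, 21808281 to 21809321, + strand) had the smallest p of all members. Its counts were 56 and 64 in WT_CTCF and 41 and 12 in MUT_CTCF, so that both MUT_CTCF libraries were lower but differed from each other more than 3-fold. The log2 fold change was -1.18 (95% interval -2.09 to -0.28; adjusted p = 0.158 by edgeR), and -0.56 without MUT_CTCF replicate 2. Hist1h2ah had 22 and 35 against 32 and 43 counts and Hist1h2ag 24 and 52 against 37 and 12, each with overlap and with log2 fold changes of 0.39 and -0.64. The pseudogene Hist1h2aj had 10 and 12 against 34 and 21 counts, with a log2 fold change of 1.31 (adjusted p = 0.327 by edgeR). Only 7.5% of its stretches were unique, and it shares 20 exon positions with Hist1h2bm on the other strand. Hist1h2aj was outside the rule for named genes and is given because it was 1 of the 3 at an unadjusted p under 0.05.

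Of the 13 H2b genes, 7 were higher and 6 lower. Hist1h2bk (chromosome 13, 22127690 to 22128168, + strand) had 31 and 38 counts in WT_CTCF and 75 and 57 in MUT_CTCF. Both MUT_CTCF libraries were higher, with a log2 fold change of 0.93 (95% interval 0.14 to 1.71; adjusted p = 0.224 by edgeR), and it stayed between 0.73 and 1.10 with each library left out. Hist1h2bg had 63 and 65 against 63 and 92 counts, a difference made by MUT_CTCF replicate 2 alone. Hist3h2ba, in the small Hist3 cluster, had 83 and 58 against 57 and 80, as far apart within each line as between them.

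The other linker histone genes were low. Hist1h1a had 56 and 54 counts in WT_CTCF and 79 and 56 in MUT_CTCF, with a log2 fold change of 0.29 (95% interval -0.41 to 0.98) that was 0.03 without MUT_CTCF replicate 1. Hist1h1d had 60 and 58 against 61 and 49, and Hist1h1b 16 and 41 against 25 and 27. The spread of Hist1h1b within WT_CTCF exceeded its difference between the lines. Hist1h1e, named after its values were seen, had the largest H1 value, with 18 and 8 counts against 32 and 23. Both MUT_CTCF libraries were higher, at a log2 fold change of 1.07 (95% interval -0.21 to 2.34; adjusted p = 0.451 by edgeR), and only they both reached 10 counts.

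Outside Hist1, the Hist2 genes summed to 94.2 and 64.2 normalized counts in WT_CTCF and 59.5 and 43.2 in MUT_CTCF, a ratio of 0.649 without overlap. Most came from Hist2h2be, an H2B gene with 99.2% unique stretches, at 66 and 34 against 31 and 22 counts. No stem-loop of the searched pattern was found in Hist2h2be, so the Hist2 sum rests mostly on a gene in which this mark of the class was not found. The log2 fold change of Hist2h2be was -0.92 (95% interval -1.85 to 0.02; adjusted p = 0.339 by edgeR) and -0.37 without WT_CTCF replicate 1. Hist2h4 had 15 and 23 against 10 and 5 counts and a log2 fold change of -1.33 (95% interval -2.86 to 0.20). Hist2h3c2, which did not pass the filter, had 3 and 4 against 10 and 10. Hist3h2a had 14 and 12 against 9 and 8, and it shares 708 exon bases with Trim17.

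Replicates of 1 line often differed by as much as the lines did. Normalized counts of 10 of the 49 genes differed more than 2-fold between the WT_CTCF replicates and those of 13 between the MUT_CTCF replicates, with a median fold of 1.5 and 1.48. The largest was 3.08-fold in WT_CTCF, for Hist1h3e, and 4.46-fold in MUT_CTCF, for Hist1h4n. The estimated dispersion of histone genes between 10 and 30 normalized counts had a median of 0.118, close to the 0.112 of other genes at that level. Between 30 and 100 it was 0.0603 against 0.0445, and for the 4 abundant members 0.00812 against 0.00209 in the 11588 other genes above 100. The band above 100 has no upper limit, and levels were not matched within any band. Above 100, the mean chi-square between replicates was 5.68 for members against 3.76 for other genes in WT_CTCF. In MUT_CTCF it was 2.50 against 4.67, so there the members varied less.

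**Figure D4:**
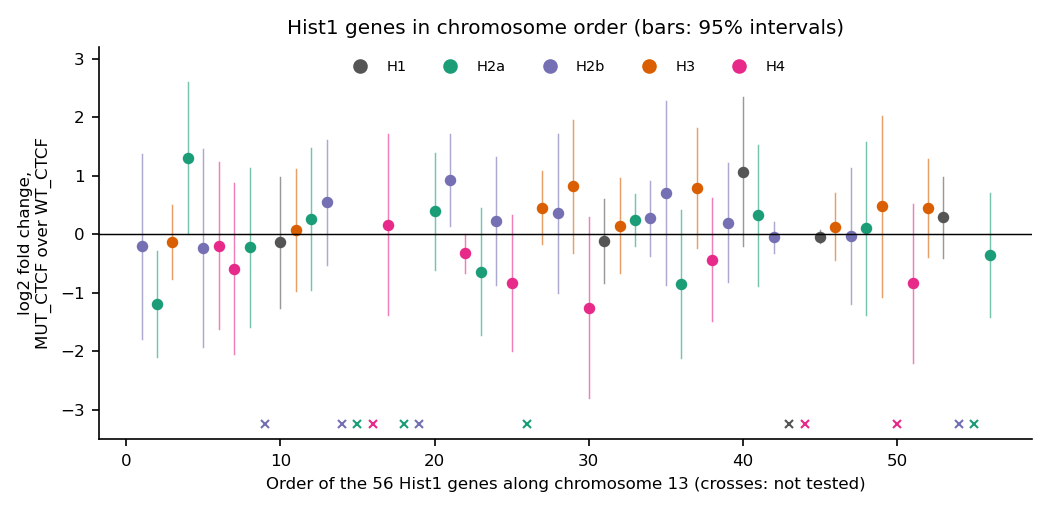
Log2 fold change of MUT_CTCF over WT_CTCF for the 44 tested genes of the 56 in the Hist1 cluster, in their order along chromosome 13, with 95% intervals; crosses mark genes not tested. Points are coloured by family, and genes above and below 0 are interspersed along the cluster, in runs of differing length, from Hist1h2ai at -1.18 near the left to Hist1h2al at -0.36 at the far right.

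Along Hist1, higher and lower genes were interspersed, 24 above and 20 below 0. Many H2A and H2B genes are arranged head to head, so that a shared stretch lies before both starts. There were 14 such neighbours without overlap and with starts at most 1000 bases apart. Of these, 13 were an H2A with an H2B gene, and the distances were 168 to 693 bases. Both partners could be tested in 8 of the 14, and their log2 fold changes had the same sign in 5. Hist1h2aj and Hist1h2bm, which overlap at their starts on opposite strands, were not counted and were at 1.31 and -0.23. Hist1h2ae and Hist1h2bg, 176 bases apart, were at 0.24 and 0.27, while Hist1h2bf and Hist1h2ad, 185 bases apart, were at 0.71 and -0.85.

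Promoters were read from RefSeq (GRCm38.p6), which gave 61 of the 70 members a window of 250 bases before and 50 after the start. The letters CCAAT, bound by NF-Y, were found on either strand for 85.2% of these members and in 37.4% of all 32851 mouse promoters listed. A member with several windows, such as Hist1h2be, was counted if any of them held the letters. The share of all promoters counts each promoter singly. TATAAA, the letters of the TATA box, was found in 57.4% against 13.6%. It was counted at any position and on either strand, so a hit need not be a TATA box of that gene. ATTTGCAT, the octamer bound by OCT1 and related POU factors, was found in 23.0% against 1.70%. By family, CCAAT was found for all 6 H1, 17 H2a, 16 H2b and 10 H3 members but for 3 of 12 H4 members. The octamer was found for 7 H2a and 7 H2b members and for none of the H1, H3 and H4 members. Because partners of a pair share sequence, these windows are not independent. The 250 bases before the start are shown for an H2B gene of a pair with the octamer in both windows, and for the most abundant H4 gene, with the letters of all 3 motifs in capitals.

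Hist1h2bg (GRCm38.p6 chr13:23571150-23571399, + strand): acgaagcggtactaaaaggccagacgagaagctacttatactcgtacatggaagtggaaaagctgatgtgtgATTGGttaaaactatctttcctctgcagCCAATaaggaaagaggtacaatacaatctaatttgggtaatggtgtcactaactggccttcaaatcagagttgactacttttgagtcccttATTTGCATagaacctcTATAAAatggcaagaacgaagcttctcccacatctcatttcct
Hist1h4i (GRCm38.p6 chr13:22041363-22041612, - strand): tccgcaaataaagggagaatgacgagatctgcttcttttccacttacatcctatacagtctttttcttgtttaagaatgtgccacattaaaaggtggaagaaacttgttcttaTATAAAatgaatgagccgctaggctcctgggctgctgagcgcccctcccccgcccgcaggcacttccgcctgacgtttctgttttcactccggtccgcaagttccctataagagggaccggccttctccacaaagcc

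The Hist1h2bg window holds CCAAT on both strands, the octamer and TATAAA, in that order toward the start. The Hist1h4i window holds TATAAA but neither of the other motifs. The octamer was in both windows of 3 pairs: Hist1h2ae with Hist1h2bg, Hist1h2ah with Hist1h2bk, and Hist1h2ba with Hist1h2aa. The first pair was at log2 fold changes of 0.24 and 0.27 and the next at 0.39 and 0.93. Of all 10 tested members with the octamer, 7 were above 0 and 3 below (Hist3h2a at -0.61, Hist1h2bm at -0.23 and Hist1h2bb at -0.03), and none was called.

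Hist1h1t, Hist1h2aa and Hist1h2ba encode histones known from the testis. Hist1h1t had 0 and 4 counts in WT_CTCF and 5 and 1 in MUT_CTCF, Hist1h2aa 5 and 0 against 8 and 0, and Hist1h2ba 0 and 1 against 5 and 4. None passed the filter, and no spermatogenic marker could be tested: Tnp1 had 0 counts in every library. The 7 spermatogenic markers, with these histone genes among them, summed to 6.01 to 7.02 normalized counts in WT_CTCF and 12.1 to 18.8 in MUT_CTCF. The 8 embryonic stem cell markers checked were all expressed, summing to 243338 and 246178 normalized counts in WT_CTCF and to 241190 and 241704 in MUT_CTCF. Among them Sox2 was called higher (log2 fold change 0.10, adjusted p = 0.0358 by edgeR) and Dppa5a and Utf1 lower (log2 fold changes -0.10 and -0.21, adjusted p = 0.0157 and 0.00499 by edgeR). Over all tested genes, 1.56% were called higher and 1.61% lower. Of 7 fibroblast markers, 4 passed the filter, none was called and Lum was at 0. The 7 summed to 886 to 908 normalized counts in WT_CTCF and 964 to 1023 in MUT_CTCF. The 6 primitive endoderm markers summed to 463 to 532 in WT_CTCF and 554 to 616 in MUT_CTCF with none called. Among all tested genes, taken singly, both MUT_CTCF libraries were above both WT_CTCF libraries in 22.3% and below them in 22.3%. The part of the cell type markers in the histone values was not tested. In bulk RNA, fewer cells in S phase and less histone mRNA per cell cannot be told apart.

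Beside the clustered genes, the replication-independent histones are mostly made from ordinary polyadenylated mRNAs, and many of them outside S phase as well. Of 11 genes listed as such variants, all tested, 1 rose and 1 fell. Over all tested genes, 1.56% were called higher and 1.61% lower. H2afy, which encodes macroH2A, had 10065 and 10016 counts in WT_CTCF and 10787 and 11335 in MUT_CTCF, a log2 fold change of 0.13 (95% interval 0.07 to 0.20; adjusted p = 0.0144 by edgeR). H2afz, which encodes H2A.Z, fell from 45145 and 44312 to 41857 and 42706, by 0.09 on the log2 scale (adjusted p = 0.026 by edgeR). At counts this high such small changes passed the test, while the intervals of nearly all clustered genes are several times wider than these changes.

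The genes that control the clustered histones moved little. Their calls stand beside the 1.61% of all tested genes called lower. The calls of E2f4, Snrpb and Dcp2 were each lost under 7 of 10 alternatives, which were library size as the only scaling, no filter, DESeq2 and each library left out. Of 10 locus factors and cyclin E kinase genes, 1 fell: E2f4, an E2F family repressor, went from 10129 and 9968 to 9088 and 9518 counts (log2 fold change -0.12, adjusted p = 0.0476 by edgeR). Npat, the coactivator at the clusters, had 355 and 304 against 422 and 337 counts, with overlap. Among 18 genes of histone pre-mRNA processing, 1 fell, Snrpb, which encodes a core snRNP protein (log2 fold change -0.10, adjusted p = 0.0472 by edgeR). Slbp had 4681 and 4634 against 4560 and 4811 counts and a log2 fold change of 0.003 (95% interval -0.09 to 0.09).

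Of 10 genes listed for histone mRNA decay, 2 fell, where 1.61% of all tested genes were called lower. Dhx9, an RNA helicase, went from 16011 and 16072 to 14539 and 13724 counts (log2 fold change -0.19, adjusted p = 2.3e-05 by edgeR), and Dcp2, the decapping enzyme, from 4231 and 4272 to 3693 and 3937 (log2 fold change -0.16, adjusted p = 0.0428 by edgeR). Both act on many mRNAs. Upf1, the helicase of histone mRNA decay, was at -0.07 on the log2 scale (adjusted p = 0.261 by edgeR). Of 23 histone chaperones 1 fell, Supt16h of the FACT complex (log2 fold change -0.15, adjusted p = 0.0142 by edgeR), and of 22 S phase genes 1 fell, the replicative helicase gene Mcm5 (log2 fold change -0.08, adjusted p = 0.0178 by edgeR). The median log2 fold change was -0.01 for the variants, 0.06 for the locus factors, 0.001 for processing, -0.03 for decay, -0.03 for chaperones and 0.02 for S phase genes, beside 0.07 for the clustered genes and 0.003 for all genes.

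**Figure D5:**
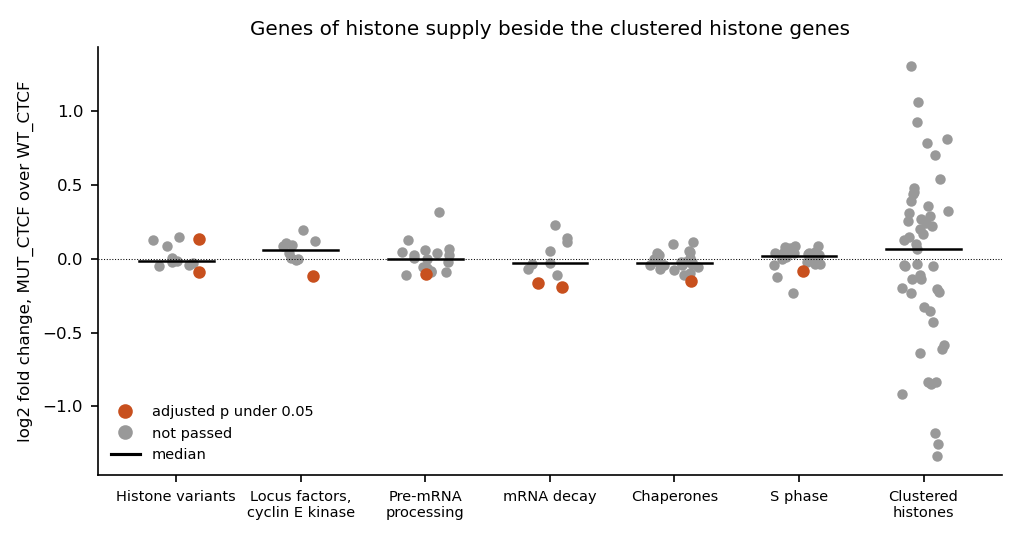
Log2 fold change of MUT_CTCF over WT_CTCF for the tested genes of 6 lists tied to histone supply and for the 49 clustered histone genes. Points are genes (jittered sideways), orange where the adjusted p was under 0.05, and black lines are medians; the clustered genes spread from -1.33 to 1.31 with none called, while every gene of the 6 lists lies between -0.23 and 0.32.

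Other RNAs known to lack a poly(A) tail and the neighbours of the clusters were read the same way. Of 2975 genes annotated as snRNA, snoRNA or scaRNA, 128 were tested and 0 were called by edgeR. They summed to 7292 and 7426 normalized counts in WT_CTCF and to 7158 and 7630 in MUT_CTCF. Malat1, a nuclear RNA with no poly(A) tail, had 930 and 950 counts against 1197 and 1035, with a log2 fold change of 0.24 (adjusted p = 0.118 by edgeR). Over all tested genes, 1.61% were called lower. Between the first and last member of Hist1 and of Hist2 lie 453 other annotated genes, 129 of them tested and 1 called. That gene was Nup153, a nuclear pore gene in the long stretch that separates Hist1h2al (chromosome 13, 51298057 to 51298434) from the rest of Hist1, and it fell by 0.16 on the log2 scale (adjusted p = 0.014 by edgeR). Leaving Hist1h2al out, 123 other genes lie within the clusters, 7 were tested and none was called.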

How the data were processed

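The 4 libraries (2 biological replicates of each line) were trimmed with Trim Galore, aligned to mm9 with STAR and counted with HTSeq by the authors, who deposited raw counts of uniquely mapped reads per gene. A deposited table of the authors' own comparison (fold changes, p-values) was not used.

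Genes were named by the GENCODE M1 annotation of the same build, which matched 37205 of 37620 identifiers. Genes passing filterByExpr (minimum count 10; 16264 genes, 99.96% of counts) were scaled by TMM and tested with glmQLFit and glmQLFTest in edgeR 4.0.16 (R 4.3.3) on the line alone, with Benjamini-Hochberg adjustment. The common dispersion was 0.0022. DESeq2 1.42.0 and the other alternatives are given with the closing limits. The test was checked on counts simulated from these libraries.

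Stem-loops (GG, a 6-base stem, a 4-base loop that starts with TT, CC; at least 5 pairs) were searched to the gene end or up to 300 bases past the stop codon. Copies were counted by exact 50-base matches on both strands.

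Named genes were the 4 most abundant of each family, members outside Hist1 with at least 10 counts in a library, the testis histones, and called genes of the other lists or, where none was called, the 2 most abundant. The members and lists were chosen with earlier results of these data known. Of the cell type markers other than the testis histones, only called genes and genes without any count were named. Hist1h2aj, Hist1h1e, Hist1h3a, Hist1h3d, Hist1h3f, Hist1h2bm, Hist1h2bb, Hist1h4f, Hist1h4n, Slbp, Npat, Upf1, Hist1h2bf, Hist1h2ad and the stem-loop examples fall outside this rule and were named for their role, pairing or p after their values were seen.

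The replicates differed beyond counting noise (chi-square per degree of freedom 3.64 in WT_CTCF and 4.33 in MUT_CTCF). Their numbers did not pair the lines (correlation of deviations -0.019).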

Additional observations from a re-analysis of the deposited data

How the results depend on the processing

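No member was called at an adjusted p under 0.05 under the size factors of DESeq2, library size as the only scaling, no filter, at least 10 counts in every library, a replicate block, DESeq2 or any library left out. The smallest adjusted p of a member over these settings was 0.0657. The study's criterion (p under 0.05 before adjustment and more than a 2-fold change) called 1 gene higher and 1 lower. The median log2 fold change of the tested members was 0.07. It was 0.13 with at least 10 counts in every library, 0.01 with the replicate block, -0.033 without a filter (67 genes), and -0.043 without members that share exon positions or have under 50% unique stretches, an alternative added after the data were seen. With 1 library left out it ran from -0.17 (without MUT_CTCF replicate 2) to 0.27 (without WT_CTCF replicate 2), so its sign rests on single libraries. The lone library of a line is then assumed to vary as the other line does.

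Of 24 named members tested, 13 kept their sign under every alternative and 11 did not. With each library left out in turn, the log2 fold change ran from -0.085 to 0.0032 for Hist1h1c, -0.26 to 0.031 for Hist1h1d, -0.66 to 0.69 for Hist1h1b, -1.65 to 0.021 for Hist1h2ag, -0.14 to 0.041 for Hist1h2bc, -0.039 to 0.53 for Hist1h2bg, -0.32 to 0.23 for Hist3h2ba, -0.22 to 0.59 for Hist1h3c, -0.078 to 1.30 for Hist1h3g, -0.41 to 0.10 for Hist1h3h and -0.44 to 1.17 for Hist1h3e. The 12 called genes of the other lists and markers kept their sign, and each lost its call without a filter and with at least 2 of the 4 libraries left out in turn. Dhx9 lost its call under 3 of 10 alternatives, Dppa5a and Nup153 under 4, H2afy, Sox2, Supt16h and Utf1 under 5, H2afz and Mcm5 under 6, and E2f4, Snrpb and Dcp2 under 7. The H3 and H2b medians changed sign without MUT_CTCF replicate 2, to -0.02 and -0.19. The H1 median changed from -0.04 to 0.26 without WT_CTCF replicate 2, to 0.003 and 0.03 without MUT_CTCF replicate 1 or 2, and to 0.12 without a filter. The H2a median changed from -0.06 to 0.25 with at least 10 counts in every library and to 0.04 without WT_CTCF replicate 2. The H4 median changed sign under none of these alternatives.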
